A study of Mus musculus with 4 samples.

Results

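Ttr, Kl, Folr1, Enpp2, Ptgds, Igf2, Igfbp2 and Dcn are genes whose transcripts are abundant in the choroid plexus, in the meninges or in both, and they are often read as signs of how much of these bordering tissues a brain dissection carried along. They were followed by name in array data from mouse hippocampus, through every probe set that the array's annotation assigns to exactly 1 gene symbol. The annotation held 7 of the 8 genes, with 11 probe sets among 12422, and of these 9 probe sets covering all 7 genes passed a filter on low signal that kept 6210 probe sets. Enpp2, which encodes the secreted enzyme autotaxin, had no probe set under its name and was not analysed here.

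The study measured total RNA from 4 samples of murine hippocampus, each on its own Affymetrix Murine Genome array. All samples form a single group under the labels, which state no genotype, strain, sex, age or treatment. No comparison between conditions could therefore be made, and the values describe how far 4 hippocampus samples differed in these markers. The labels do not say whether the samples came from separate animals, so the spread between them may be technical, and the sample numbers serve only as names.

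The choroid plexus is the epithelium within the brain ventricles that makes cerebrospinal fluid, and it lies against the hippocampus in the lateral ventricle. Its cells secrete transthyretin and growth factors into the fluid and carry nutrients such as folate across from the blood. The meninges are the connective tissue sheets around the brain, whose fibroblasts lay down collagens and proteoglycans and also secrete proteins into the fluid. Several of the markers are shared with cells inside the hippocampus: Ptgds is also transcribed in oligodendrocytes and Igfbp2 in astrocytes. In whole tissue, fewer cells of a type and less RNA per cell cannot be told apart.

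Genes of hippocampal neurons were read beside the tissue label, which they cannot check, since no sample of another brain region was available. The presynaptic gene Snap25 lay between 7326 and 9251 normalized array units, and the calcium-binding protein gene Calb1 between 522 and 665 units. Other neuronal genes were less even: Camk2a, a kinase gene of excitatory neurons, had 357 units in sample 1, 629.7 in sample 2, 321 in sample 3 and 29.4 in sample 4. Syt1, another presynaptic gene, had 2039.9 units in sample 1, 1160.2 in sample 2, 718 in sample 3 and 605 in sample 4. Sample 4 was thus lowest for both. Other neuronal genes differed: of 11 analysed genes in the list, 5 were lowest in sample 4 and 2 were highest there. Of all analysed probe sets, 30.7% were lowest in sample 4 and 31.1% highest. Prox1, which marks granule cells of the dentate gyrus, had a mean below the filter and lay under the floor in 2 samples. The floor was the 25th percentile of all normalized values, 27.7 units, below which signals have no order. For Gapdh, the signal at the 3′ end over that at the 5′ end, which is higher where RNA or its copy is less complete, was 1.15 in sample 4 and between 0.864 and 0.981 in the others, and this quotient was highest in sample 4 for Actb, pyruvate carboxylase and 18S rRNA as well. The part of this difference in the results below was not tested.

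The marker transcripts had different sample orders. Ttr, Folr1, Igf2 and Igfbp2 were highest in sample 1, Kl in sample 4, Dcn in sample 3, and Ptgds in sample 3 or 4 depending on the probe set. Of all analysed probe sets, 24.7% were highest in sample 1, 21.6% in sample 2, 22.5% in sample 3 and 31.1% in sample 4. Sample 4 was also most often the lowest, for 30.7%. Of the 9 analysed probe sets, 4 spanned at least 2-fold between the lowest and the highest sample, against 15.2% of all analysed probe sets. The median range was 0.88 log2 units for the marker probe sets and 0.53 for all analysed ones. The 9 are not independent, since 3 of them read Ptgds. The count of 4 rested on single samples: it was 1 of 8 analysed without sample 1, and of 9 it was 2 without sample 2, 2 without sample 3 and 3 without sample 4, when the share of all probe sets was 11.2%, 11.8%, 11.1% and 7.36%.

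**Figure D1:**
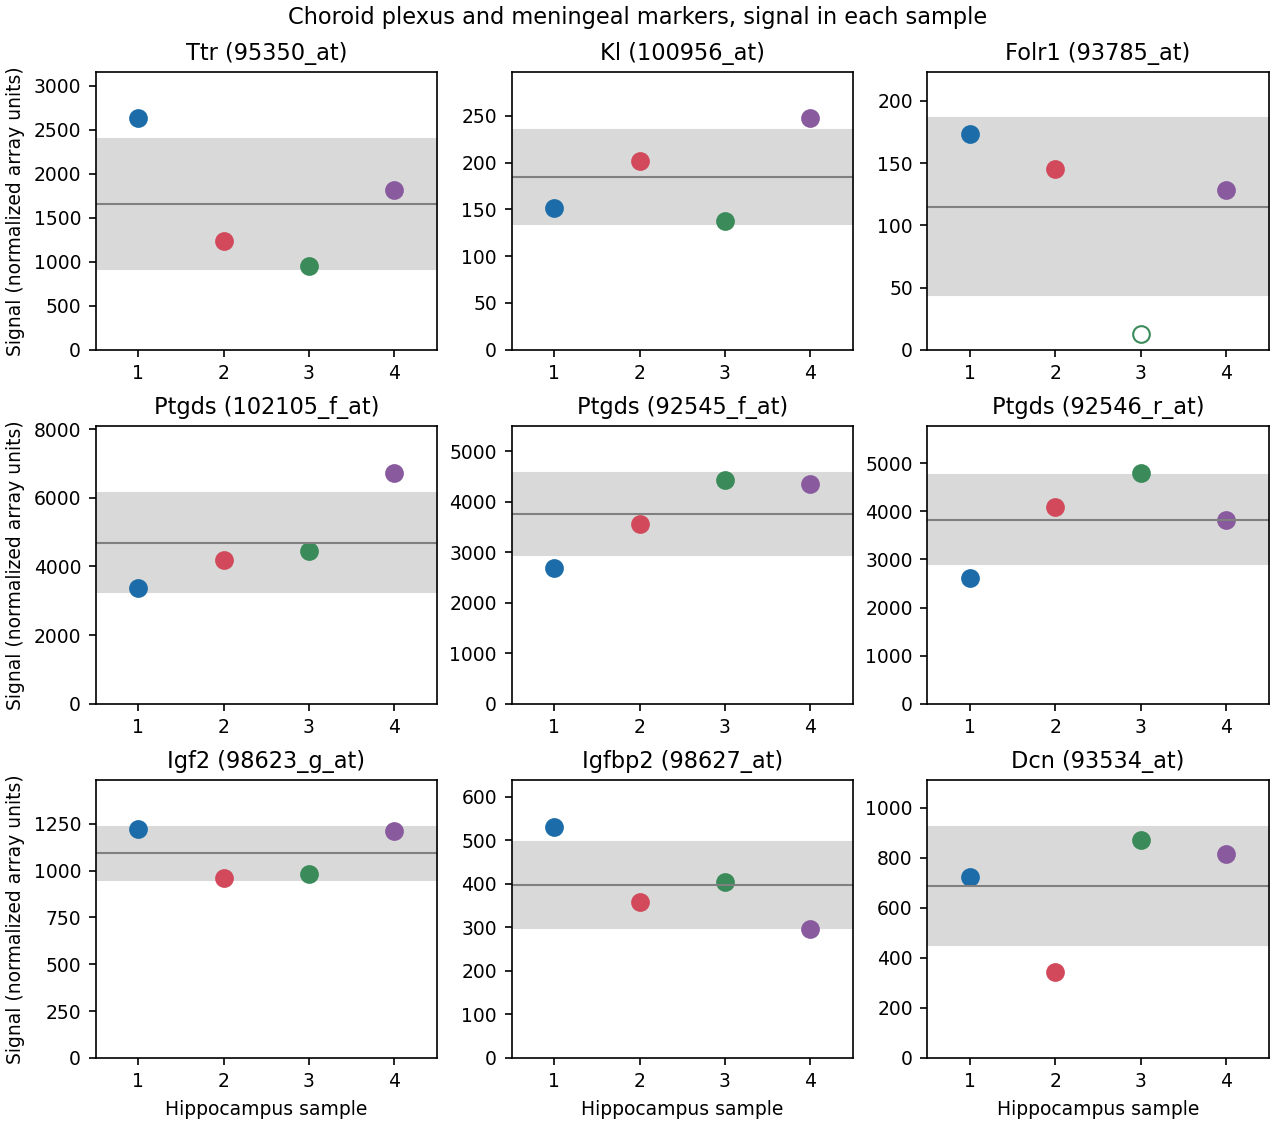
Signal of each analysed marker probe set (normalized array units, linear axes from 0) in the 4 hippocampus samples. Points are single arrays, the grey line is the mean and the band is the mean ± 1 SD (n = 4). The open point, Folr1 in sample 3, lies below the floor of 27.7 units. Ttr is highest in sample 1 and Kl in sample 4, while Dcn stands low only in sample 2.

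No marker passed the test of excess variance. This test asked whether a probe set varied more over the 4 samples than probe sets of like signal, and it called 0 of the 9 marker probe sets and 0.0% of all analysed ones (limma, one-sided F test, Benjamini-Hochberg adjustment over 6210 probe sets). The smallest adjusted p among the markers was 0.610, for Ttr. At an unadjusted p under 0.05 there were 5 of the 9 marker probe sets, those of Ttr, Folr1 and Dcn and 2 of those of Ptgds, against 5.62% of all probe sets. With 4 samples the test has little power for spans as small as those of the markers. On simulated data it recovered 0% of 4-fold changes placed in 1 or 2 samples. Of 8-fold changes it recovered 0% in 1 sample and 81% in 2 samples. A missed threshold, here and for the gene lists that follow, does not show that a gene was steady. The values of single markers are therefore given as measured, without a claim that any of them varied.

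**Figure D2:**
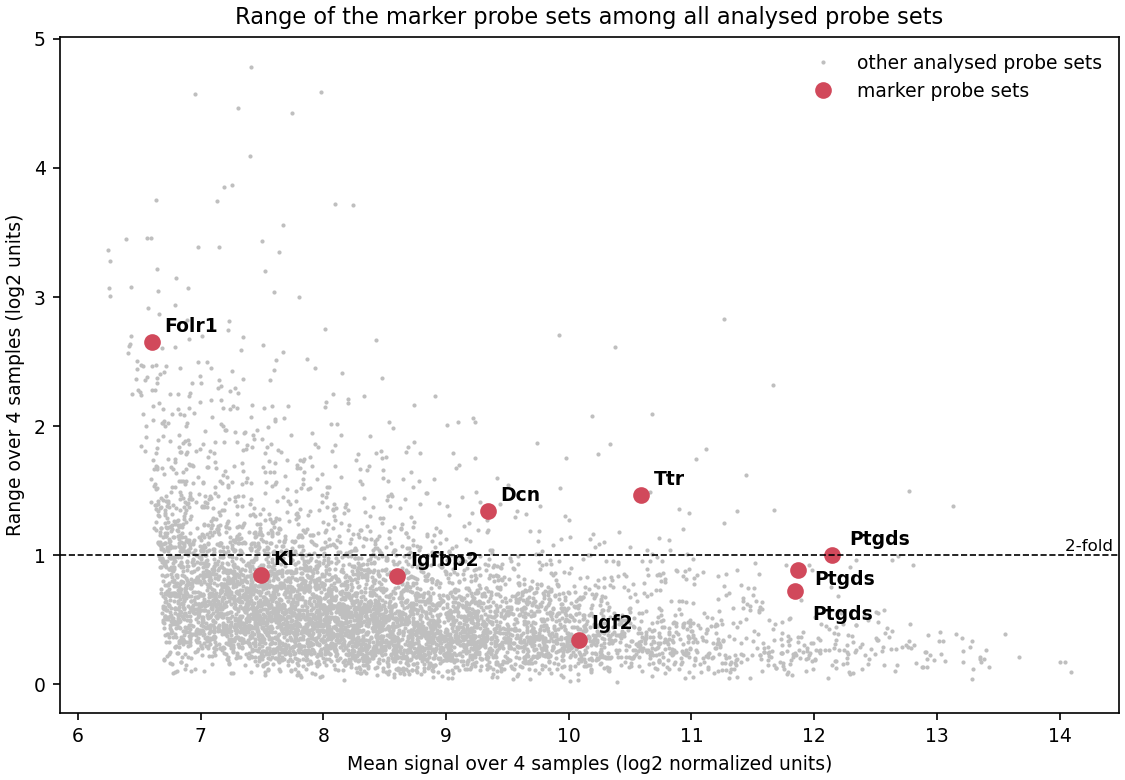
Range over the 4 samples (log2 units) against mean signal (log2 normalized units) for all 6210 analysed probe sets, with the 9 marker probe sets in red. The dashed line marks a 2-fold range. Ttr, Dcn and Folr1 lie above the line, 1 Ptgds probe set lies on it, and Igf2 lies far below it.

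Among the transport proteins of the choroid plexus, Ttr encodes transthyretin, the carrier of thyroxine and of retinol-binding protein. Its signal was 2629.5 units in sample 1, 1236 in sample 2, 954 in sample 3 and 1820.2 in sample 4, with a mean of 1660.0 ± 740.1 units (SD, n = 4). Sample 1 was thus high and sample 3 low, a 2.76-fold span that 5.72% of analysed probe sets equalled or exceeded, with an adjusted p of 0.610 (limma). Without sample 1 the span was 0.93 log2 units, against 1.46 with all samples.

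Folr1 encodes the folate receptor alpha, which moves folate through the choroid plexus into the fluid. Its signal was 174 units in sample 1, 145.5 in sample 2 and 128 in sample 4, whereas in sample 3 it was 12.4 units and lay below the floor. The span was therefore at least 6.28-fold (limma, adjusted p = 0.842), and 0.757% of analysed probe sets had a range as large. It rested on sample 3 alone, since the other samples spanned 0.43 log2 units. This probe set passed the filter through its 3 higher samples, and with a filter on the mean of log2 values it was no longer analysed. The other Folr1 probe set, of a kind (suffix _f_at) whose probes can match related sequences, had a mean of 19.8 units and was above the floor only in sample 4, at 32.7 units.

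Kl encodes klotho, a membrane and secreted protein that acts as a co-receptor for fibroblast growth factor 23. Its signal was 152 units in sample 1, 202 in sample 2, 138 in sample 3 and 247 in sample 4 (185 ± 49.9 units, SD, n = 4). Kl was highest in sample 4, where Ttr came second, and low in sample 1, where Ttr was highest. Both were lowest in sample 3. The ratio of Ttr to Kl signal within a sample differed 2.83-fold between sample 1, where it was highest, and sample 2, where it was lowest. Kl itself spanned 1.80-fold (limma, adjusted p = 0.994), and 22.8% of analysed probe sets spanned as much or more.

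Bases before the start sites of Kl, Ptgds and Igfbp2, whose signals had different sample orders, are shown, and no link between sequence and sample order was tested. They are RefSeq sequences of mouse assembly GRCm38.p6, 250 bases ending just before an annotated start, and they were found for 4 of the 8 genes. The remaining gene, Igf2, has 4 windows, which are not shown. The Kl window lies at chr5:150952357-150952606 on the plus strand, the Ptgds window at chr2:25469750-25469999 on the minus strand and the first Igfbp2 window at chr1:72824230-72824479 on the plus strand. Capitals mark matches, on either strand, to the 7 motifs named after the sequences.
Kl: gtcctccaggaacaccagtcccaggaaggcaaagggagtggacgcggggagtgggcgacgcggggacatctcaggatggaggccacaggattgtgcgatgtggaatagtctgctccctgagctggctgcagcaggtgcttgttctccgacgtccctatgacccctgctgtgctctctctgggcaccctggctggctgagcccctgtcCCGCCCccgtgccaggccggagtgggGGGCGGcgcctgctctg
Ptgds: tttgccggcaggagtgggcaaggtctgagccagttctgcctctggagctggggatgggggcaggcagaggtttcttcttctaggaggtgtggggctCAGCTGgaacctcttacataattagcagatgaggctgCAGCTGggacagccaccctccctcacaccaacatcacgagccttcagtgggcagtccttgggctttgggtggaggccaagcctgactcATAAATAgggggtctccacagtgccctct
Igfbp2: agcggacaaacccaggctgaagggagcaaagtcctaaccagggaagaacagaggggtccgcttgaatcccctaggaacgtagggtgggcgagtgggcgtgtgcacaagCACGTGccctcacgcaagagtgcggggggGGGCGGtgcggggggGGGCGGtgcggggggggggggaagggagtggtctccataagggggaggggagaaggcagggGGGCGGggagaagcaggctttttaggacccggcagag

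The 3 windows differed in composition. GGGCGG, the core of the GC box that Sp1 binds, occurred 2 times in the Kl window and 3 times in that of Igfbp2, and was not found in that of Ptgds, while 32.7% of all 32841 mouse windows of this length hold it. The Ptgds window held ATAAATA, a variant of the TATA box, 29 bases before the start, a motif added after its sequence had been read and present in 5.17% of windows. It also held CAGCTG, an E-box, 2 times, and 13.0% of windows have this motif. CACGTG, another E-box, occurred 1 time in the Igfbp2 window and is found in 6.02% of windows. There were 0 matches in these 3 windows to the TATA box TATAAA, which 12.4% of all windows hold, to the CCAAT box CCAAT, held by 33.9%, or to TAATCC, a site of the choroid plexus factor Otx2 held by 6.25%. The GC content was 66.8% for Kl, 58.4% for Ptgds and 67.2% for Igfbp2, and the median of all windows was 52.4%. A second Igfbp2 start has a window with 0 matches to GGGCGG or CACGTG and a GC content of 56.4%, so the composition given for this gene holds for the window shown. These matches describe the letters only, and no binding was measured.

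Ptgds encodes lipocalin-type prostaglandin D synthase, also known as beta-trace, a major protein of cerebrospinal fluid made by meningeal cells, choroid plexus and oligodendrocytes. All 3 of its probe sets were lowest in sample 1. The first, 102105_f_at, had 3363 units in sample 1, 4188 in sample 2, 4458 in sample 3 and 6734 in sample 4 (4686 ± 1443 units, SD, n = 4). The second, 92545_f_at, had 2685 units in sample 1, 3549.6 in sample 2, 4436 in sample 3 and 4359 in sample 4. The third, 92546_r_at, had 2606 units in sample 1, 4082 in sample 2, 4807 in sample 3 and 3825 in sample 4. The first placed sample 4 well above the others and the third placed sample 3 highest, so the order of samples 2, 3 and 4 is not settled. With median scaling in place of quantile normalization, the second was highest in sample 4. The first spanned just over 2-fold, the second 1.65-fold and the third 1.84-fold, with adjusted p from 0.705 to 0.887 (limma). Without sample 1 the last 2 shrank to 0.32 and 0.33 log2 units, and without sample 4 the first shrank to 0.40. The suffixes _f_at and _r_at mark probe sets whose probes may match related sequences or that were picked by relaxed rules.

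The sample order of Ptgds was mostly opposite to that of Ttr. Of the 6 pairs of samples, the third Ptgds probe set placed 0 in the same order as Ttr, the second 1 and the first 2. The ratio of Ttr to Ptgds signal was highest in sample 1 and lowest in sample 3 with each of the 3 probe sets, and differed 3.65-fold, 4.55-fold and 5.08-fold. Genes of oligodendrocytes, which also transcribe Ptgds, had a different order: their summed signal over 10 analysed genes was 13098 units in sample 1, 15443 in sample 2, 12715 in sample 3 and 15221 in sample 4. The sum was thus lowest in sample 3, as were 7 of the 10 genes, whereas Ptgds was highest or second highest there. The genes did not share 1 order. Mobp was lowest in sample 1 and highest in sample 4, like the first Ptgds probe set, and Car2 was highest in sample 3. The part of oligodendrocytes in the Ptgds values was not tested.

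Igf2 encodes insulin-like growth factor 2, which in the adult rodent brain is transcribed mainly in choroid plexus and meninges. It had the narrowest span of the analysed marker probe sets. Its analysed probe set, 98623_g_at, had 1220.1 units in sample 1, 961 in sample 2, 980.1 in sample 3 and 1212 in sample 4 (1093 ± 142 units, SD, n = 4). Samples 1 and 4 lay together above samples 2 and 3, as for Ttr, but the span was only 1.27-fold, and 74.7% of analysed probe sets spanned as much or more (limma, adjusted p = 0.994). As deposited and with median scaling, sample 4 was highest in place of sample 1. The second Igf2 probe set, 98622_at, stayed below the floor in all 4 samples, between 6.35 and 12.4 units. The 2 probe sets thus disagree on whether Igf2 was detected. The Igf2 values compared with other markers rest on 98623_g_at alone, and which probe set reads Igf2 correctly was not tested.

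Igfbp2 encodes a secreted protein that binds insulin-like growth factors and limits their access to the receptor. Its signal was 532 units in sample 1, 359 in sample 2, 403 in sample 3 and 297 in sample 4 (398 ± 99.3 units, SD, n = 4). Sample 1 was high for both Igfbp2 and Igf2, but sample 4 was lowest for Igfbp2 and close to the top for Igf2. The 1.79-fold span of Igfbp2 (limma, adjusted p = 0.994) fell to 0.44 log2 units without sample 1, against 0.84 with all samples.

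Dcn encodes decorin, a small proteoglycan of fibroblasts that binds collagen fibrils and TGF-beta. Its signal was 723 units in sample 1, 343 in sample 2, 869 in sample 3 and 813 in sample 4 (687 ± 237 units, SD, n = 4). Only sample 2 stood low, and the other 3 samples lay within 0.27 log2 units of one another. The span was 2.53-fold (limma, adjusted p = 0.695), a size that 7.33% of analysed probe sets reached. Since each sample had 1 array, neighbouring values of a marker, such as those of samples 3 and 4 for Dcn, have no error of their own and cannot be put in order.

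**Figure D3:**
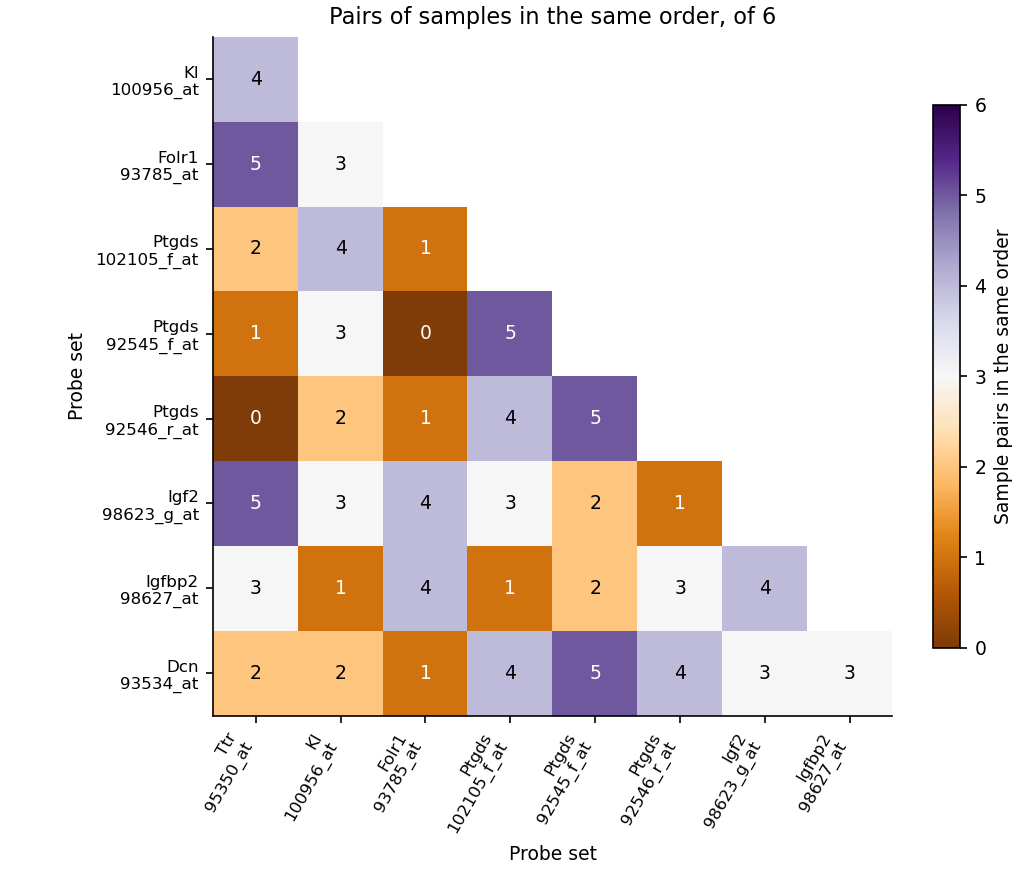
Agreement in sample order between the 9 analysed marker probe sets. Each cell gives how many of the 6 pairs of samples stood in the same order for the probe set of the row and that of the column. The Ptgds probe sets share 4 or 5 pairs with one another and 0 to 2 with Ttr, and Ttr shares 5 with Folr1 and with Igf2. The counts describe 4 samples and carry no test.

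Analysed genes with the pattern nearest to a marker were sought for the 4 probe sets that spanned at least 2-fold. Likeness was the largest difference, over the 4 samples, between log2 values centred on their mean, and 4823 other genes were compared. Nearest to Ttr were Nos1 (0.15 log2 units), which encodes neuronal nitric oxide synthase, Pold4 (0.19) and Mrpl17 (0.21), and 3 genes lay within 0.25. Nearest to Folr1 was Alas2 (0.30), which encodes an enzyme that starts heme production in red cell precursors, with 209.7 units in sample 1, 237 in sample 2, 36.6 in sample 3 and 152 in sample 4. Hic1 (0.35) and Prp2 (0.48) followed, and 0 genes lay within 0.25. These differences take Folr1 in sample 3 at the floor, not at its signal, and so depend on where the floor lies: with the floor at the 10th percentile the range of Folr1 was 3.80 log2 units, against 2.65. For the first Ptgds probe set, Sun2 (0.03), Kcnma1 (0.06) and Adam3 (0.07) were nearest, and 153 genes lay within 0.25. For Dcn, Acbd6 (0.08), Ercc1 (0.13) and Ak3 (0.15) were nearest, and 9 genes lay within 0.25.

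Other choroid plexus genes did not follow a common order with the markers. Of 39 listed genes, 21 had a probe set and 8 were analysed; of these 1 spanned at least 2-fold and 0 passed the variance test, and the median range was 0.70 log2 units. Over all 4824 analysed named genes, 13.3% spanned at least 2-fold and the median range was 0.51. The carbonic anhydrase gene Car14 had the widest span, with 117 units in sample 1, 140 in sample 2, 184 in sample 3 and 266 in sample 4, an order close to that of Ptgds and unlike that of Ttr. The bicarbonate exchanger gene Slc4a2 lay between 309.5 units in sample 4 and 386 in sample 1. Slc12a2, the sodium-potassium-chloride cotransporter that takes part in fluid secretion, was highest in sample 4 at 839 units. Of the 8 genes, 4 were highest in sample 1, as Ttr was, 2 in sample 3 and 2 in sample 4. The shares of all analysed probe sets highest in these samples were 24.7%, 22.5% and 31.1%. Several defining genes of this epithelium had low signals, with Cldn2 under the floor in all 4 samples and the water channel gene Aqp1 under it in sample 1 and no higher than 70.8 units in the others. The median deviation of the 8 genes from the mean of the other samples was 0.24 log2 units in sample 1, -0.12 in sample 2, -0.05 in sample 3 and -0.20 in sample 4.

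Sample 2, where Dcn was low, was lowest for some meningeal and fibroblast genes and not for most. Of 35 listed genes, 32 had a probe set and 16 were analysed. Among the 16, 3 spanned at least 2-fold, against 13.3% of all analysed named genes. The variance test called 0 of them, and their median range was 0.68 log2 units. Their median deviation in sample 2 was 0.04 log2 units, where 10 of 16 lay above the mean of the other samples and 2 were lowest, Sparc at 380.5 units and Gjb6 at 201 units. Below the filter, Lum, which encodes a proteoglycan related to decorin, was lowest in sample 2 at 81.0 units, and the laminin gene Lama1 lay under the floor there alone. Fmod, another such proteoglycan gene, lay under the floor in samples 2 and 3. Not all listed genes below the filter were low in sample 2: Alpl was highest there, at 105 units. These genes below the filter were picked after their values were seen. The collagen gene Col1a2 lay between 1099.8 and 1220.1 units and Col1a1 between 182 and 319. The widest span was that of Zic1, a transcription factor gene of meninges and cerebellum, at 107 units in sample 1, 185 in sample 2, 182 in sample 3 and 353 in sample 4. Among the partners of decorin, 16 of 17 genes had a probe set, and 0 of the 7 analysed spanned 2-fold. The growth factor genes Tgfb2 and Tgfb3, whose family decorin binds, lay between 88.7 and 131 units and between 158 and 232 units.

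In insulin-like growth factor signalling, 7 of 16 listed genes were analysed, 2 spanned at least 2-fold and 0 passed the variance test. Over all analysed named genes, the share with a 2-fold span was 13.3%. Igf1 lay between 691 and 866 units and its receptor gene Igf1r between 539 and 774. Irs2, an adaptor below the receptor, had the widest span, with 68.25 units in sample 1, 148 in sample 2, 301 in sample 3 and 199 in sample 4. Another binding protein gene, Igfbp6, had 162 units in sample 1, 198 in sample 2, 291 in sample 3 and 75.6 in sample 4, and like Igfbp2 was lowest in sample 4.

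Partners of the other markers were read as 3 further lists. For thyroid hormone and retinol transport, 3 of 12 genes were analysed and 0 spanned 2-fold, with Dio2, which activates thyroxine, between 280.3 and 364 units and the receptor gene Thra between 5226 and 5979. For prostaglandin D2 and lysophosphatidate signalling, 3 of 22 genes were analysed and 1 spanned 2-fold: Plpp1, a lipid phosphatase gene, lay between 84.2 and 173 units. Lpar1, the lysophosphatidate receptor gene downstream of autotaxin, lay between 107 and 207 units. Among klotho and folate partners, 8 of 22 genes were analysed and 1 spanned 2-fold, Mthfd2 of mitochondrial folate metabolism, between 106 and 239 units. The klotho partner Fgfr1 lay between 451 and 537 units and Fgfr2 between 381 and 623. In each of these 3 lists 0 genes passed the variance test, and 13.3% of all analysed named genes spanned at least 2-fold.

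Genes of other tissue components differed between samples beside the markers. Erythroid genes, which mark blood left in the tissue, had a summed signal of 14231 units in sample 1, 11126 in sample 2, 4652 in sample 3 and 8739 in sample 4 over 4 analysed genes of 10 listed, so that sample 1 was high and sample 3 low, as for Ttr and Folr1. Hba-a1 and Hbb-b2 were their first 2 members, and Alas2 had the widest span. Hba-a1 makes up most of the sum, and the order was not shared by all, since Alas2 was highest in sample 2 and Klf1, an erythroid transcription factor gene, in sample 3 at 127 units and lowest in sample 2 at 80.8. Vessel genes summed to 936 units in sample 1, 639 in sample 2, 589 in sample 3 and 644 in sample 4 over 4 of 16 genes. Of these 4 genes, 3 were highest in sample 1, among them Cldn5, of the blood-brain barrier, at 446 units. Only Pecam1 was highest in sample 4, at 168 units. Ependymal genes summed to 8599 units in sample 1, 9954 in sample 2, 8552 in sample 3 and 9577 in sample 4 over 6 of 19 genes. The tubulin gene Tuba1a makes up most of this sum, at 7293 units in sample 1, 8374 in sample 2, 7326 in sample 3 and 8100 in sample 4. The sum therefore says little of the other ependymal genes. Foxj1, which drives motile cilia, lay between 88.0 and 199 units, Rsph1 between 538 and 672 and Nes between 58.7 and 205. In the erythroid list 3 of 4 genes spanned at least 2-fold, in the vessel list 3 of 4 and in the ependymal list 2 of 6. Over all analysed named genes the share was 13.3%. The variance test called 0 of these genes. Among those with a 2-fold span, its unadjusted p ran from 0.00141 for Hba-a1 to 0.448 for Pecam1 (limma). The part of blood, vessels or ependyma in the marker values was not tested.

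Lists of astrocytes, oligodendrocytes, neighbouring brain regions and neurons were read in the same way. Astrocyte genes summed to between 14559 and 15648 units over 10 of 13 genes, of which 2 spanned 2-fold; Gfap, their intermediate filament gene, lay between 581 and 1320.2 units, Aqp4 between 532 and 994 and Slc1a2 between 107 and 373. Oligodendrocyte genes had 1 of 10 with a 2-fold span, Mag, between 403 and 818 units, while Mog lay between 157 and 239 and Mal between 575 and 992. Genes of bordering brain regions had 1 of 9, Tcf7l2, which marks thalamus, between 172 and 407 units, while Lef1 lay between 333 and 510.2. Hippocampal neuron genes had 2 of 11, Camk2a and Syt1, while Dsp lay between 199 and 375 units. In these 4 lists 0 genes passed the variance test, and 13.3% of all analysed named genes spanned at least 2-fold.

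**Figure D4:**
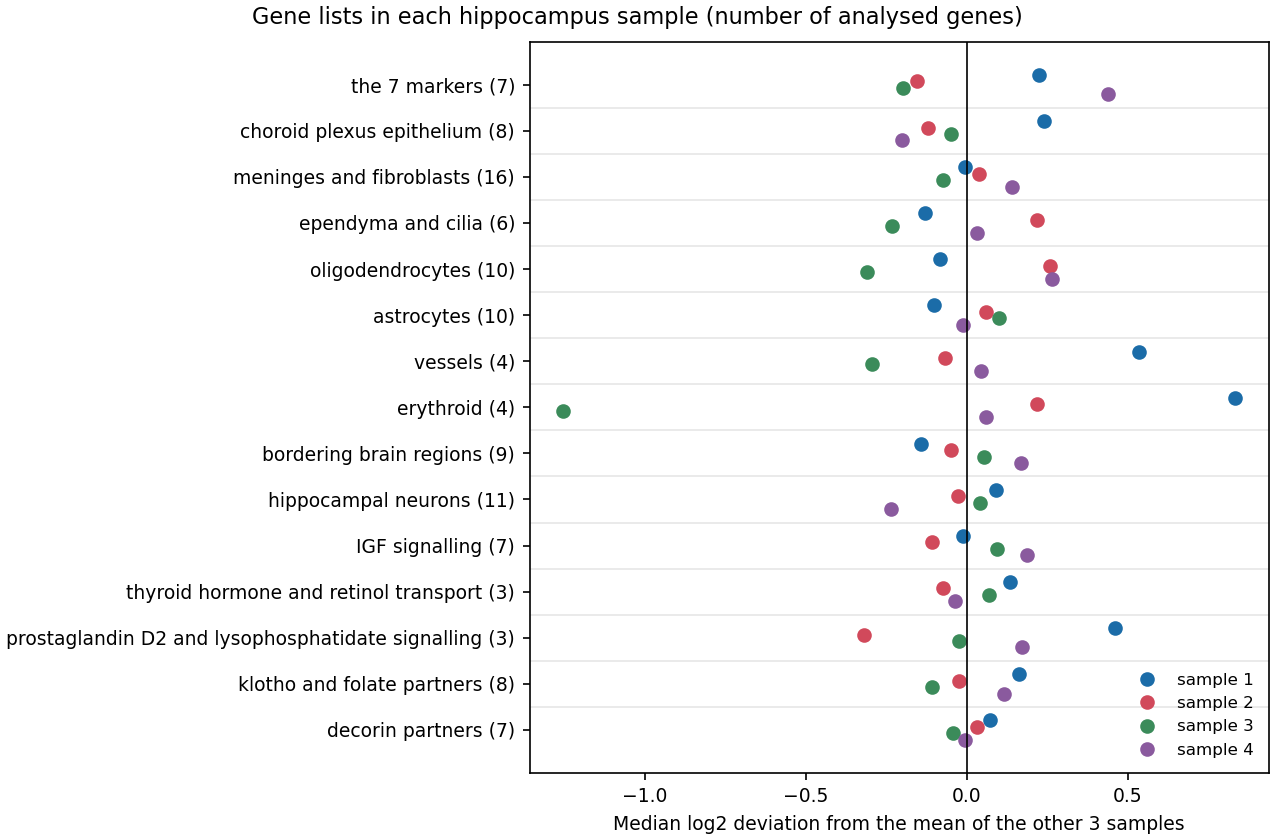
Median log2 deviation of each gene list in each hippocampus sample from the mean of the other 3 samples. Points are samples, and the number of analysed genes stands beside each list. The erythroid list is spread widest, from -1.25 in sample 3 to 0.83 in sample 1, and the choroid plexus and meningeal lists stay between -0.20 and 0.24.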

How the data were processed

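The deposited table holds intensities on a linear scale, and how they were computed before deposit is not given in the sources used here. Their means, trimmed by 2% at either end, were 249.6 to 249.9 units on the 4 arrays, so the arrays share a scale. Only the number of arrays, 4, is known of the precision. After removal of 66 control probe sets, signals were quantile normalized (limma 3.58.1, R 4.3.3). Values below the 25th percentile, 27.7 units, were set to it before log2. The filter kept probe sets whose mean normalized signal exceeded the median of such means. Symbols were updated through Entrez identifiers with the RefSeq gene table of GRCm38.p6. Variance was tested against an intensity trend (limma's robust empirical Bayes functions, 3 residual and 5.06 prior degrees of freedom), after a check on simulated data. Each gene in a list is represented by its analysed probe set with the highest mean. The text names every marker probe set, the first 2 analysed genes and the widest gene of each list, and the 3 genes nearest in pattern to each marker that spanned 2-fold. Snap25, Syt1, Prox1, Cldn2, Aqp1, Igfbp6, Sparc, Gjb6, Lum, Fmod, Lama1, Alpl, Klf1, Tuba1a, Mobp and Car2 were chosen outside this rule, after their values were seen. So were the genes named under other observations, other than Tcf7l2, Fgfr1, Hba-a1 and Hbb-b2. The markers and the 14 lists were chosen with earlier results of these data known. Alternatives were median scaling, values as deposited, no filter, a filter on log2 means, a floor at the 10th percentile, a prior without robust fit, and each sample left out in turn.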

Additional observations from a re-analysis of the deposited data

Results flagged for a closer look

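Folr1 (93785_at) in sample 3 lay apart from the other samples. On the floored log2 scale, the gap between sample 3 and its nearest neighbour was 0.835 of the whole range, above Dixon's 95% critical value for 4 samples. Chance flags about 1 in 20 such groups, and 9 marker probe sets were examined. The value in sample 3 was set to the floor, so the gap is measured to the floor and not to the signal of 12.4 units. No other marker probe set passed this value.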

How the results depend on the processing

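No paired analysis was possible because the samples form a single group. The variance test called 0 markers with every alternative run, with a smallest adjusted p among the markers between 0.465 and 1.00. Since the test recovered 0% of simulated 4-fold changes, these counts of 0 do not show that the outcome is robust. The count of marker probe sets spanning 2-fold, 4, was 3 to 4 with the other scalings, filters and floor, and 1 to 3 when a sample was left out. It fell to 3 as deposited, where 102105_f_at of Ptgds fell just under 2-fold, and to 3 with a filter on log2 means, an alternative added after the data had been seen, where Folr1 was not analysed. Sample order was kept by 6 of 9 marker probe sets with median scaling and by 8 of 9 as deposited. Median list ranges moved by more than the spread between samples for 3 lists when a sample was left out, and lay between 0.64 and 1.81 log2 units for erythroid genes, 0.22 and 0.93 for prostaglandin and lysophosphatidate genes, and 0.49 and 0.91 for vessel genes. The omission of a sample can only keep or narrow a range apart from renormalization. Without detection calls, signals near the floor may be background.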

Other observations

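A few listed genes shared the full sample order of Ttr, highest in sample 1, then samples 4, 2 and 3, an order found in 2.74% of analysed probe sets. Among 21 choroid plexus genes with a probe set these were 2, both with means below the filter. Ace, which encodes angiotensin-converting enzyme, an enzyme of choroid plexus and vessels, had 146 units in sample 1, 65.5 in sample 2, 56.3 in sample 3 and 129 in sample 4. Col8a1, a collagen gene, had 114 units in sample 1, 72.6 in sample 2, 56.9 in sample 3 and 107 in sample 4. Among 32 meningeal genes they were Vtn and Serping1, and Vtn, which encodes vitronectin, lay between 125 and 245 units. Among 13 genes of bordering brain regions with a probe set only 1 had this order, Tcf7l2 of the thalamus. It had 407 units in sample 1, 269.9 in sample 2, 172 in sample 3 and 339 in sample 4. Its probe set has the suffix _f_at. Among 13 klotho and folate partners 3 had this order, Fgfr1, Shmt1 and Slc19a1, with spans of 1.19-fold, 1.14-fold and 1.38-fold. Values this close, with 1 array per sample, have no settled order. The counts given here include genes below the filter, such as Shmt1, which the share of 2.74% leaves out. Erythroid genes gave 0 of 6 with the full order of Ttr, although Hba-a1 and Hbb-b2 each shared 5 of the 6 sample pairs with it. These genes were singled out after their values had been seen, and no test was made.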
